A study of Mus musculus with 7 samples.

Results

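The voltage-gated sodium channel genes Scn1a, Scn2a1 (also written Scn2a), Scn3a and Scn8a were followed through 4 RNA libraries of cultured cortical neurons and 3 H3K9me3 ChIP libraries of hippocampus. They were chosen by gene symbol, and are 4 of the 6117 genes whose event reads could be compared. RNA came from wild-type ICR neurons, taken from embryos at day 16 and grown to day 11 in culture. The 2 KCl libraries had 10 min in a buffer with KCl (50 mM) and the 2 control libraries 10 min in the same buffer with NaCl instead, and all were harvested 24 h later. Whether a replicate is a culture of its own is not stated in the labels, and p-values therefore reflect how far these libraries differ, which may be technical. H3K9me3, a histone mark of silenced chromatin, was measured in whole hippocampus of wild-type C57BL/6 mice aged 3 months: 1 library from mice kept in the home cage, and 2 from mice that spent 24 h in an enriched cage and then 1 week in the home cage. The number of animals behind a library is not given in the sources used here, and the tissue holds neurons and glia together. The sums of event reads lay between 3566066 and 5385345 per RNA library, and recovered fragments to between 6187162 and 13008562 per ChIP library.

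These genes code for the pore-forming alpha subunits that carry the inward sodium current of the action potential. Scn1a is best known in inhibitory interneurons, Scn2a1 in the axons of young excitatory neurons, Scn3a in the embryonic brain, and Scn8a at mature axon initial segments and nodes of Ranvier. A pair of mutually exclusive exons in several of these genes codes for part of the voltage sensor of the first domain. The upstream exon gives the form called neonatal and the downstream exon the form called adult, and the balance moves toward the adult form as the brain matures.

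The RNA tables list splicing events, each with reads of an inclusion and a skipping form. They held 24 rows of the 4 genes, 10 in the tables of replicate 1 and 14 in those of replicate 2, at 15 different sets of coordinates. Scn8a had 7 of these, Scn1a and Scn2a1 3 each, and Scn3a 2. By type, 11 were cassette exons, 2 mutually exclusive pairs and 2 alternative 5′ splice sites. In both replicate tables, and so in all 4 libraries, 8 events could be followed: 3 of Scn2a1, 2 of Scn3a, 2 of Scn8a and 1 of Scn1a.

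All 4 genes had fewer reads in the KCl libraries than in the control libraries, and none passed edgeR's test without a term for the replicate number. A gene's level was read from its best-covered event as CPM, the reads of both forms scaled to library size. Such a value depends on the length of the event, so levels are compared only between libraries and not between genes.

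Scn2a1 was read at its mutually exclusive pair and stood at 73.2 and 120 CPM in control replicates 1 and 2, and at 7.53 and 43.0 CPM in KCl replicates 1 and 2 (log2 fold change -1.92, SE 0.77, edgeR adjusted p 0.390). Both KCl libraries lay below both controls, and KCl replicate 1 lay far below KCl replicate 2. Scn8a, read at its own pair, had 18.1 and 30.6 CPM in control and 6.16 and 9.62 CPM in KCl (log2 fold change -1.61, SE 0.56, edgeR adjusted p 0.354). Its groups did not overlap, and here the KCl libraries lay closer together. Scn1a, read at a cassette exon of 142 bases, had 12.5 and 22.0 CPM in control and 0.684 and 1.7 CPM in KCl (log2 fold change -3.74, SE 0.73, edgeR adjusted p 0.352).

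The Scn1a values in KCl rest on 1 read and 3 reads, against 18 and 41 reads in control. Pooled within groups and scaled to library size, Scn1a was 14.4 times higher in control than in KCl, with a counting interval of 5.35 to 54.7 at 95%. Such an interval leaves out the spread between libraries. No gene of the 6117 had a lower fitted log2 fold change. Scn3a, the member with the smallest difference, had 12.5 and 9.66 CPM in control and 2.74 and 9.05 CPM in KCl (log2 fold change -0.87, SE 0.67, edgeR adjusted p 0.689). KCl replicate 2 lay just under the lower control, and the pooled ratio of control to KCl was 1.76 with a counting interval of 0.993 to 3.21.

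**Figure D1:**
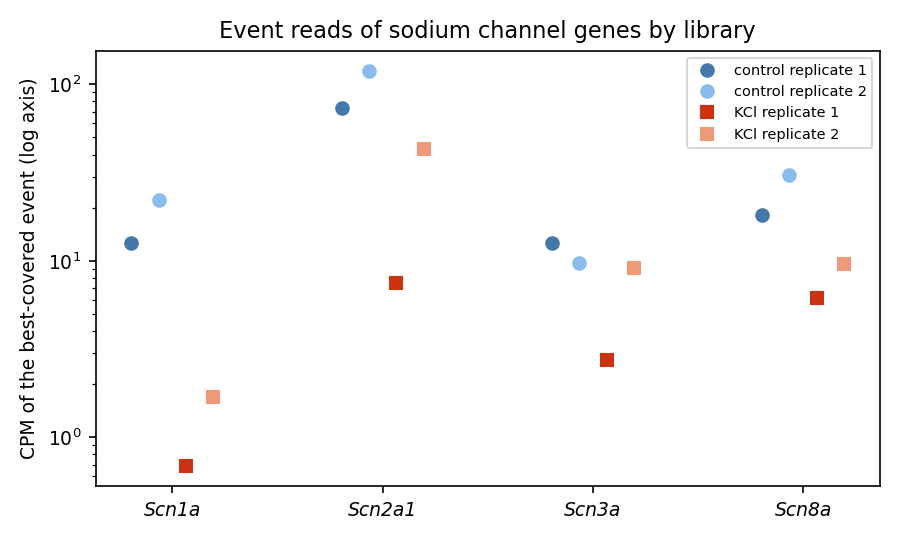
Event reads of the 4 sodium channel genes in each library, as CPM of the best-covered event on a log axis; each point is 1 library. In every gene both KCl points lie under both control points, closest in Scn3a (9.05 and 9.66 CPM); heights are not comparable between genes.

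After Benjamini-Hochberg adjustment, 0% of the 6117 genes had a p under 0.05 in edgeR's quasi-likelihood fit. At an unadjusted p under 0.05 it had 12.3%, and 7.32% with a lower value in KCl. Of the 4 members 3 were among the latter, with Scn1a at 0.00134, Scn8a at 0.0242 and Scn2a1 at 0.0410. Scn3a had 0.236. For Scn8a this holds at its best-covered event only. With reads summed over all events of a gene, Scn8a had a log2 fold change of -1.12 and an unadjusted edgeR p of 0.0794. On such sums Scn1a had 0.00124 and Scn2a1 0.0359. KCl libraries lay below the control libraries in 21.2% of genes and in all 4 members. The median log2 fold change was -1.77 over the members and 0.04 over all genes tested. Without KCl replicate 2, the log2 fold change was -4.58 for Scn1a and -3.73 for Scn2a1. The KCl group is then KCl replicate 1 alone, and the spread comes from the control pair. Without KCl replicate 1, where KCl replicate 2 stands alone, Scn2a1 stood at -1.15, Scn3a at -0.27 and Scn1a at -3.28. Over all 6117 genes DESeq2 called 71, with 59 lower and 12 higher in KCl. DESeq2 called Scn1a (log2 fold change -3.85, DESeq2 adjusted p 0.0449; adjusted p 0.00167 to 0.502 over the alternatives, the lowest from edgeR with the replicate number as a block) and neither Scn2a1 nor Scn8a, and gave no adjusted p for Scn3a.

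All 8 events had a negative log2 fold change of their total reads, with a median of -1.62 against 0.02 over the 11814 events tested. They include the best-covered event of each gene, already given above as its level. The event counts therefore largely repeat the gene values. KCl libraries lay below control libraries in 6 of the 8, against 21.4% of all events, and 4 of the 8 had an unadjusted p under 0.05 in edgeR, against 10.9%. After adjustment edgeR called 0 of them and 0% of all events. The 3 events of Scn2a1 share the reads of the same exons, as their inclusion counts show below, and are not independent. Beyond these and the best-covered events, only a second event of Scn3a and a second event of Scn8a remained. That of Scn3a had 3.34 and 7.41 CPM in control and 2.25 and 3.46 CPM in KCl. Its groups overlapped (log2 fold change -0.91, SE 0.65, edgeR adjusted p 0.682). The event of Scn8a that stood apart was a 68-base cassette exon on chromosome 15 (101023839 to 101023906, mm10), with 2.86 and 6.35 CPM in control and 3.6 and 5.38 CPM in KCl. Its groups overlapped, and its log2 fold change was -0.06 (SE 0.63, edgeR adjusted p 0.993).

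Neuron markers also had lower values in KCl, and edgeR called 0 of them and 0% of all genes tested. Of 8 listed markers 6 were measured, all with a negative log2 fold change (median -2.03), and in 5 of them, but not in Dcx, both KCl libraries lay below both controls. That order was found in 21.2% of all genes tested. Summed, they came to 6853 and 6912 CPM in control and to 550 and 2326 CPM in KCl replicates 1 and 2, so KCl replicate 1 was again the lower. Of the markers, chosen here after their values were seen, Stmn2, which codes for a microtubule regulator of growing axons, had 5290 and 4545 CPM in control and 339 and 1460 in KCl, while Snap25, a protein of synaptic vesicle fusion, had 585 and 535 against 47.2 and 188. In bulk RNA fewer neurons and less RNA per neuron cannot be told apart.

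Levels were therefore also set against the geometric mean of the 6 neuron markers in the same library, a scaling chosen after the values were seen and given without a test. On this scale Scn2a1 stood at 18.1% and 18.2% of the marker mean in control and at 12.9% and 18.1% in KCl, so KCl replicate 2 lay next to the controls. Scn8a stood at 4.48% and 4.65% in control and 10.6% and 4.05% in KCl, and its groups overlapped. Scn1a remained lower in KCl, at 3.10% and 3.35% against 1.17% and 0.714%. Scn3a was higher in KCl on this scale, at 3.10% and 1.47% against 4.69% and 3.81%, the opposite of its order in CPM. The values of Scn8a and Scn3a in KCl replicate 1 rest on 9 and 4 reads. Those of Scn1a in KCl replicates 1 and 2 rest on 1 and 3 reads. Set against the sum of the same markers instead, the groups of Scn2a1 overlapped, with control replicate 1 lowest and KCl replicate 2 highest. With the sum, Scn1a was still lower in KCl, Scn3a higher and Scn8a overlapping.

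Markers of other cells had positive log2 fold changes. This held for 6 of 6 measured markers of oligodendrocytes and their precursors (6 of 12 listed, median log2 fold change 2.01), for 5 of 5 of astrocytes (of 8, 1.10), for 3 of 3 vascular and mesenchymal markers (of 7, 1.90) and for 4 of 4 of progenitors (of 7, 0.91). Both KCl libraries lay above both controls in 6, 3, 3 and 2 of these markers, in that order, and in 22.1% of all genes tested. The oligodendrocyte sums were 322 and 342 CPM in control and 2002 and 1099 CPM in KCl. Inhibitory neurons, known for Scn1a, were represented by Gad1 (78.7 and 39.2 CPM in control, 26.7 and 31.7 in KCl) and Lhx6 (66.9 and 67.1, 15.7 and 51.5), 2 of 8 listed, while Pvalb and Sst were not measured. Of excitatory markers Cux1 and Cux2 were measured, with a median of -0.08, and of the 5 microglial markers 0 were measured. edgeR called 0 of the marker genes and 0% of all genes tested, and the part of the markers in the values of the channel genes was not tested.

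Genes that work with the channels were measured in part, 22 of 38 listed. edgeR called 0 of them and 0% of all genes tested. An unadjusted edgeR p under 0.05 was reached by 4 of the 22, all lower in KCl, where 7.32% of all genes did so. The median log2 fold change was -0.36, with 14 lower and 8 higher. Scn3b, which codes for a beta subunit that modulates gating and the only one of 4 listed beta subunits that was measured, had 103 and 114 CPM in control and 8.21 and 40.2 in KCl (log2 fold change -2.15, SE 0.71, edgeR adjusted p 0.352). This is the pattern of Scn2a1, with KCl replicate 1 the lowest.

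Of 8 listed anchors and adhesion partners at the axon initial segment 6 were measured and 5 were lower. Ank3, which codes for ankyrin-G, the anchor of sodium channels at the initial segment, had 93.4 and 202 CPM in control and 26.7 and 73.6 in KCl (log2 fold change -1.56, SE 0.63). Nrcam, an adhesion molecule of the initial segment and node, had 346 and 294 CPM against 130 and 201 (-0.95, SE 0.42), and the spectrin gene Sptan1 had 673 and 642 against 290 and 428 (-0.87, SE 0.40). Of the trafficking genes, Mapk8ip2, a scaffold that binds channel-associated growth factor homologues, was lower (log2 fold change -1.03, SE 0.42), and Nedd4, a ubiquitin ligase, was higher (0.58, SE 0.38). Nalcn, the sodium leak channel, had 40.4 and 36.5 CPM in control and 17.8 and 31.1 in KCl (-0.64, SE 0.49), and Fgf11, a growth factor homologue, had overlapping groups (-0.22, SE 0.63).

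Among 11 measured splicing factors known to act on neuronal exons, 5 were lower and 6 higher, with a median of 0.15. Rbfox1 had 45.3 and 29.0 CPM in control and 3.42 and 15.8 in KCl (log2 fold change -1.91, SE 0.73). Rbfox3, also counted among the neuron markers, had 146 and 305 CPM against 25.3 and 111 (-1.72, SE 0.73), and Ptbp1, which represses neuronal exons, was higher (0.90, SE 0.46). Each of the partner genes named had an edgeR adjusted p between 0.352 and 0.942.

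**Figure D2:**
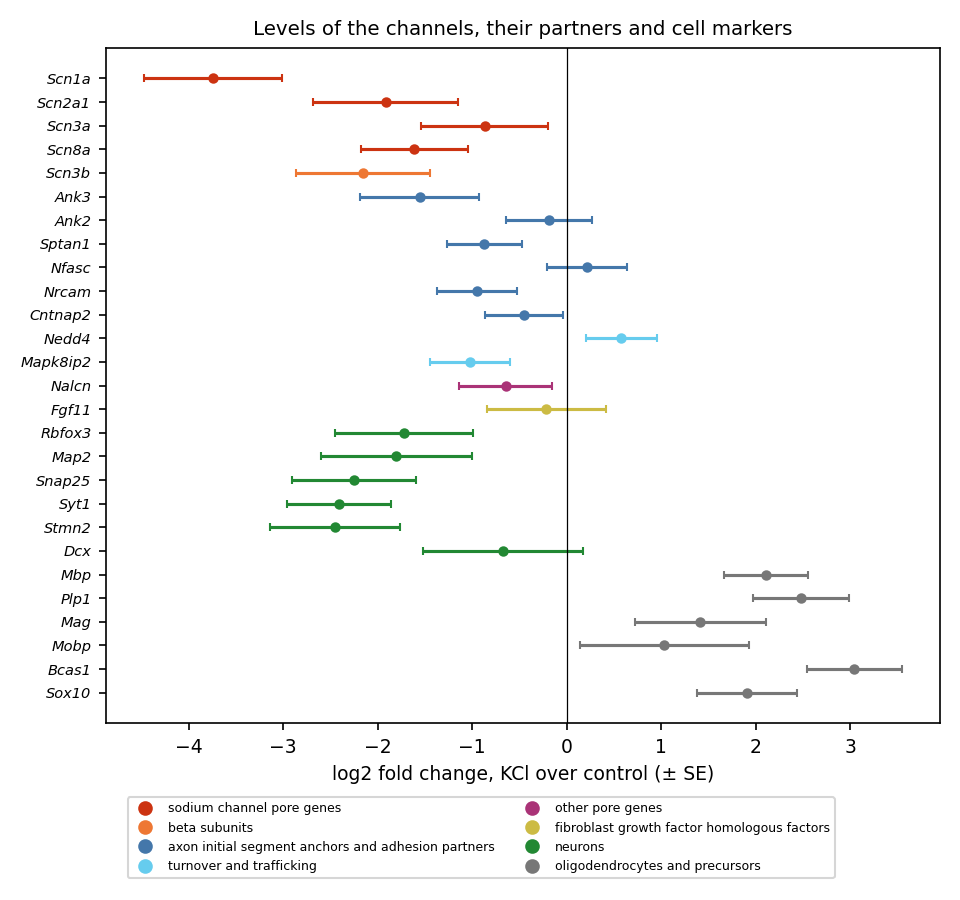
Fitted log2 fold change of KCl over control (point) with its SE (bar) for the 4 channel genes, their measured partners other than splicing factors, and markers of neurons and oligodendrocytes, coloured by list. The channel genes lie between -3.74 and -0.87, in the range of the neuron markers (-2.45 to -0.68) except Scn1a. The oligodendrocyte markers lie between 1.03 and 3.04. None of the genes shown passed edgeR's test, and 0% of all genes tested did.

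Genes with the most similar profile over the 4 libraries were sought by the Euclidean distance of centred log2 CPM among 5772 genes; this is a description of 4 libraries. Nearest to Scn2a1 were Pak6 (distance 0.133), Rundc3b (0.236) and Clvs1 (0.253), and nearest to Scn8a were Runx1t1 (0.0670), Kit (0.158) and Rdh13 (0.208). Scn3a lay nearest to Spin2c (0.228), Rgs19 (0.252) and Uspl1 (0.341). Scn1a had no equally close gene, and its nearest were Met (0.684), Nrg3 (0.704) and the calcium channel gene Cacna1i (0.714). Its KCl values rest on 1 and 3 reads, and 1 CPM was added before the log. The distances of Scn1a therefore depend on values near the floor.

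The next question was which exon of each pair was used. For mutually exclusive exons the tables give inclusion and skipping reads without saying which exon is which, and this was settled from cassette rows of the same exons. In Scn2a1 the inclusion reads of the pair (47, 151, 8 and 50 in control replicates 1 and 2 and KCl replicates 1 and 2) equal those of the first exon listed as a cassette exon, and the skipping reads (58, 72, 3 and 26) equal those of the second. Across control replicate 1 the inclusion form matched the first exon in 118 of 274 pairs of genes on the plus strand and the second in 0. On the minus strand it matched the second in 108 of 269 pairs and the first in 0. The other pairs on these strands matched neither way. In every matched pair of known strand, inclusion is therefore the exon that comes first in the transcript. Scn2a1 and Scn8a lie on the plus strand, so their inclusion reads are those of the upstream, neonatal exon. Both exons of a pair have 92 bases in these 2 genes, so their reads can be set side by side.

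No shift of exon use between control and KCl was detectable in these genes. In Scn2a1 (chromosome 2, 65682503 to 65682594 and 65682690 to 65682781, mm10) the upstream exon had 44.8% of the reads of the pair in control replicate 1 (95% exact binomial interval 35.0 to 54.8, 105 reads) and 67.7% in control replicate 2 (61.1 to 73.8, 223 reads). It had 72.7% in KCl replicate 1 (39.0 to 94.0, 11 reads) and 65.8% in KCl replicate 2 (54.0 to 76.3, 76 reads). The controls differed from each other by 23.0 points, more than the 13 points between the group means, and both KCl libraries lay near control replicate 2. edgeR gave a log2 odds ratio of 0.65 (SE 0.79, adjusted p 0.925). Without control replicate 1 it was -0.0017, so the difference rests on that library.

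In Scn8a (chromosome 15, 100959340 to 100959431 and 100959603 to 100959694) the upstream exon had 50.0% (29.9 to 70.1, 26 reads) and 45.6% (32.4 to 59.3, 57 reads) in control. In KCl it had 22.2% (2.81 to 60.0, 9 reads) and 52.9% (27.8 to 77.0, 17 reads). The controls were close to each other here, the KCl libraries lay on either side of them, and the log2 odds ratio was -0.41 (SE 1.01, edgeR adjusted p 0.980). Without KCl replicate 1 it was 0.31.

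Scn3a carries such exons too, listed as separate cassette exons of 92 bases (chromosome 2, 65525695 to 65525786 and 65525877 to 65525968). Scn3a is transcribed from the minus strand, which places the second of these upstream. Its share of the inclusion reads of both exons, a ratio formed after the values were seen, was 26.1% (10.2 to 48.4, 23 reads) and 53.8% (37.2 to 69.9, 39 reads) in control and 55.6% (21.2 to 86.3, 9 reads) and 34.8% (16.4 to 57.3, 23 reads) in KCl. The controls lay 27.8 points apart and the KCl libraries 20.8 points, and the groups overlapped. In Scn2a1, Scn8a and Scn3a alike both forms were present in every library.

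**Figure D3:**
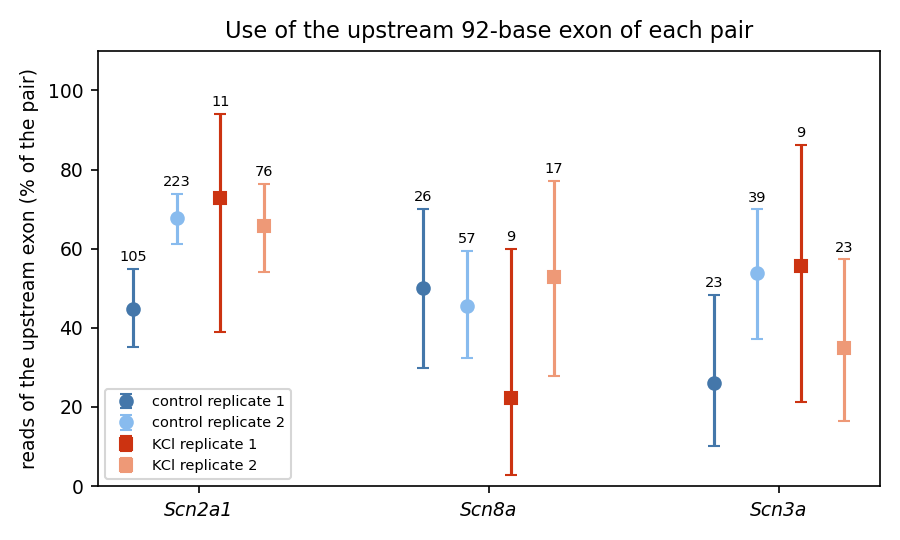
Share of the upstream (neonatal) exon in the reads of each 92-base pair, in percent, for each library; bars are 95% exact binomial intervals (counting error only) and the number above each is the reads of the pair. Control and KCl points overlap in all 3 genes, and the intervals of the 2 control libraries of Scn2a1 (35.0 to 54.8 and 61.1 to 73.8) do not overlap each other.

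Reads that skip both exons of the Scn2a1 pair were nearly absent: 0 in either control library, 2 in KCl replicate 1 and 1 in KCl replicate 2, for each exon listed as a cassette exon. With so few skipping reads these events fell under the minimum of 1 read of each form on average and were not tested, as for both Scn3a exons and the 68-base exon of Scn8a. That exon had 4 inclusion and 2 skipping reads in control replicate 1, 18 and 0 in control replicate 2, 8 and 0 in KCl replicate 1 and 13 and 1 in KCl replicate 2. It was included in most reads of every library.

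The third event tested was the 142-base cassette exon of Scn1a (chromosome 2, 66328405 to 66328546). Its inclusion share was 94.4% in control replicate 1 (17 of 18 reads) and 92.7% in control replicate 2 (38 of 41). In KCl the shares were 100% (1 of 1) and 33.3% (1 of 3), with intervals of 2.5 to 100% and 0.840 to 90.6%. The log2 odds ratio of -3.65 (SE 2.00, edgeR adjusted p 0.607) thus rests on 4 reads in KCl, and it was -0.43 without KCl replicate 2.

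Of the 8 events 3 were tested, and edgeR called 0, as it did of the 10088 events tested in all (0%). An unadjusted p under 0.05 was reached by 0 of the 3, against 9.20% of all events. In the authors' deposited tables, which compare KCl with control within a replicate number on their reads, an FDR under 0.05 was given to 0 of the 8 events in either replicate, against 2.89% and 1.29% of the 11814 events. The smallest FDR of a member row in the authors' deposited tables was 0.577. It belonged to a row for the upstream exon of Scn8a in replicate 2, with 23 inclusion and 0 skipping reads in control and 10 and 5 in KCl, and another row has the same coordinates.

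Further events were listed in 1 replicate only and have no replicate check. In replicate 1, a 64-base exon of Scn1a (66293832 to 66293895), whose length is no multiple of 3, had 0 inclusion and 6 skipping reads in control and 2 and 1 in KCl. An alternative 5′ splice site of Scn1a (66324571 to 66324951) had 2 and 20 reads in control and 0 and 1 in KCl. In replicate 2, an alternative 5′ splice site of Scn8a (100983689 to 100984075) was read almost only in its short form, with 1 inclusion and 99 skipping reads in control and 0 and 36 in KCl. A 123-base exon of Scn8a (101024261 to 101024383) had 75 and 0 reads in control and 22 and 1 in KCl. The downstream exon of the Scn8a pair had 31 and 2 reads in control and 8 and 0 in KCl, and a 150-base exon (100899392 to 100899541) had 2 and 1 in control and 2 and 0 in KCl. The upstream exon of that pair has a second row in replicate 2, with 26 and 2 reads in control and 9 and 0 in KCl. Apart from the 64-base exon of Scn1a, the form that prevailed in control prevailed in KCl, with fewer reads in all.

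The regions around the starts of the genes are shown because the members were lower together in KCl and because H3K9me3 was measured over them. They are RefSeq windows of GRCm38.p6, the build mm10, of 250 bases before to 50 after an annotated start, 5′ to 3′ on the strand of the gene. Capitals mark matches on either strand to any of 5 motifs. The TATA box was searched as TATAAA. The GC box was searched as GGGCGG. The core of the cAMP response element was searched as TGACG. For the RE1 element, bound by the repressor REST, the left core was searched as AGCACC, whose reverse complement reads GGTGCT. The right core was searched as GGACAG.
Scn1a, chr2:66440788-66441087, minus strand: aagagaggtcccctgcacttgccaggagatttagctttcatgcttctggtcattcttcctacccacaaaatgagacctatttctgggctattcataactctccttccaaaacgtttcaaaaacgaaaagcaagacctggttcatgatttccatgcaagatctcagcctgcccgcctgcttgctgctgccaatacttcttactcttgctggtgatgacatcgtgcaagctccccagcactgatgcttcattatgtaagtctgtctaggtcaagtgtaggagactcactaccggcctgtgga
Scn2a1 upstream start, chr2:65620519-65620818, plus strand: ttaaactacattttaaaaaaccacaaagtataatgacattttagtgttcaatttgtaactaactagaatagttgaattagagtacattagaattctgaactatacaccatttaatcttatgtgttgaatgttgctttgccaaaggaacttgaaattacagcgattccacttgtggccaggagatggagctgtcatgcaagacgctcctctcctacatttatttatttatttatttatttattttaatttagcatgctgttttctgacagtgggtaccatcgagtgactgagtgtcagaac
Scn2a1 downstream start, chr2:65668436-65668735, plus strand: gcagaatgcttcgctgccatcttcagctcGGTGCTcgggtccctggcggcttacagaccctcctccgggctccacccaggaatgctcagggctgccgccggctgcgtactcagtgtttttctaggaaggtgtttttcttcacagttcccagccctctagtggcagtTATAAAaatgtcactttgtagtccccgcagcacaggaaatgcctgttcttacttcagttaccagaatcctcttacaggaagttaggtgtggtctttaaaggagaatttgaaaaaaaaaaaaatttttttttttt
Scn8a upstream start, chr15:100870395-100870694, plus strand: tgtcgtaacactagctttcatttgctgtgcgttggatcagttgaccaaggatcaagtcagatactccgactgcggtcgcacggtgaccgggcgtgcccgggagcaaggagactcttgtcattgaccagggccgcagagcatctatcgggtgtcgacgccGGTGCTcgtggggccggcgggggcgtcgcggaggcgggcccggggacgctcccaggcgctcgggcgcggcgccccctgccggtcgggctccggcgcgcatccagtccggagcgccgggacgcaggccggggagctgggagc

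Scn3a has no window in the table. The windows differ in base composition: Scn8a had 38 CpG dinucleotides and 70.0% G and C, Scn1a had 5 and 47.3%, and the Scn2a1 starts had 3 and 33.0% and 9 and 47.7%, where the median of 32851 windows was 7 CpG and 52.7%. The Scn1a window and the upstream Scn2a1 window held none of the motifs. The downstream Scn2a1 window held TATAAA, found in 13.6% of all windows, and AGCACC, found in 16.2%. AGCACC was also in the Scn8a window. TGACG (20.8% of all windows) and GGGCGG (35.7%) were in none of the member windows. A downstream start of Scn8a (chr15:100936021-100936320, 12 CpG, 53.3% G and C), not shown, held GGACAG, found in 22.2% of all windows. A match is a run of letters and not a bound site.

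H3K9me3 over the 4 gene bodies was below the library median in each library, except over Scn8a in enriched replicate 2. Levels are fragments per kb divided by the median of the library's 10 kb windows, with 95% Poisson intervals that cover counting error only. Only for Scn2a1 did this interval lie under 1 in each library. The series holds no input library against which these levels could be set. Scn2a1 (chromosome 2, 65620764 to 65767447) had 0.719 times the median (0.629 to 0.818) in the home cage, 0.785 (0.720 to 0.855) in enriched replicate 1 and 0.843 (0.759 to 0.933) in enriched replicate 2. This placed it at the 16.2, 19.5 and 18.4 percentile of the 24372 gene bodies tested. Scn3a (65457118 to 65567591), its neighbour, had 0.897 (0.782 to 1.02), 0.734 (0.661 to 0.812) and 0.905 (0.806 to 1.01). Scn1a (66270781 to 66440837) had 0.845 (0.754 to 0.943), 0.942 (0.875 to 1.01) and 0.935 (0.853 to 1.02). Among the members on chromosome 2, Scn2a1 was thus lowest in the home cage and in enriched replicate 2, and Scn3a in enriched replicate 1. In the same order of libraries, Scn3a stood at the 36.9, 13.3 and 26.5 percentile of gene bodies and Scn1a at the 30.7, 40.5 and 31.0. Scn8a stood at the 38.3, 45.4 and 67.6 percentile.

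Scn8a (chromosome 15, 100869863 to 101045938) had 0.909 (0.816 to 1.01) in the home cage, 0.980 (0.913 to 1.05) in enriched replicate 1 and 1.20 (1.11 to 1.30) in enriched replicate 2. The enriched libraries differed from each other by more than their counting intervals. The home-cage fragments behind these values were 232 for Scn2a1, 218 for Scn3a, 316 for Scn1a and 352 for Scn8a.

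Between housing conditions no difference was detectable. The log2 ratio of enriched to home cage was 0.15 (SE 0.19) for Scn2a1, -0.18 (SE 0.20) for Scn3a, 0.13 (SE 0.17) for Scn1a and 0.21 (SE 0.17) for Scn8a, each with a limma adjusted p of 1.00. limma with voom weights called 0% of the gene bodies, and 1.75% had an unadjusted p under 0.05, of which 0 were members. With 1 home-cage library, its spread was taken to be that of the enriched pair. For Scn8a the ratio was 0.08 without enriched replicate 2 and 0.38 without enriched replicate 1, and for Scn3a -0.31 and -0.01. The size of both ratios thus depended strongly on the library left out.

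Other pore genes give the scale. Scn9a and Scn7a, which follow Scn1a on chromosome 2 and are known from sensory neurons and from glia and sensory organs, had 1.03, 1.11 and 1.04 times the median and 0.954, 0.907 and 0.855 times, in the order home cage, enriched replicate 1 and enriched replicate 2. Scn10a and Scn11a, known from sensory neurons, lie on chromosome 9. Scn10a had 1.57, 1.40 and 1.25 times the median, and Scn11a had 1.65 (1.46 to 1.87), 1.61 (1.48 to 1.76) and 1.52 (1.36 to 1.69). The intervals of Scn11a lay above those of the 4 members in each of the 3 libraries. The lower bound of Scn10a in enriched replicate 2 was 1.13, within the interval of Scn8a. Scn4a, the skeletal muscle channel on chromosome 11, had 1.19, 1.28 and 1.22.

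**Figure D4:**
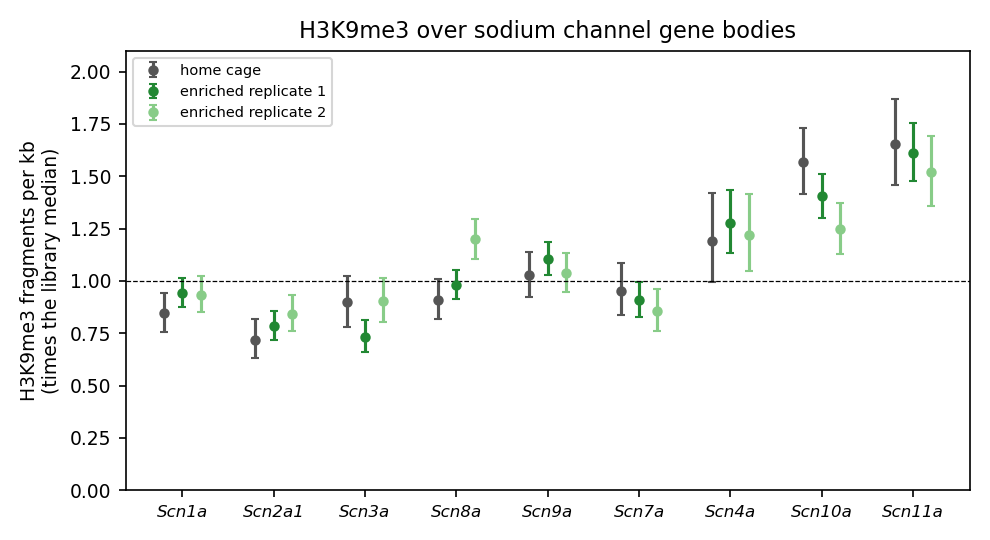
H3K9me3 over the gene bodies of the 4 brain channel genes and other sodium channel pore genes, as fragments per kb in multiples of the library median of 10 kb windows (dashed line at 1), for the home-cage library and the 2 enriched libraries; bars are 95% Poisson intervals. The 4 brain channel genes at the left lie between 0.719 and 1.20 and the 2 genes of chromosome 9 at the right between 1.25 and 1.65.

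Along the genes the level varied from window to window. Over fixed 10 kb genome windows that lie wholly inside each gene the level ran from 0.455 to 1.45 times the median in Scn1a in the home cage (16 windows), from 0.318 to 0.955 in Scn2a1 (13 windows), from 0.5 to 1.14 in Scn3a (10 windows) and from 0.636 to 1.41 in Scn8a (17 windows). The highest value of such a window in any library was 1.87, in the last part of Scn1a in enriched replicate 1, where the home cage had 1.32 and enriched replicate 2 had 1.03. In bins counted from the start of the gene, the 10 kb across the end of Scn8a had 1.27, 1.41 and 2.03 times the median. Over the 10 kb just before the start of Scn8a the level was 2.14, 1.65 and 1.87 times the median in the 3 libraries, above the first 10 kb of the gene in each (0.864, 1.02 and 1.33).

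Within 5 kb centred on the annotated starts, Scn1a had 20, 35 and 21 fragments (1.82, 1.52 and 1.40 times the median) and the upstream start of Scn8a 16, 28 and 21 (1.45, 1.22 and 1.40 times). The downstream start of Scn8a had 12, 22 and 9 fragments (1.09, 0.957 and 0.6 times). The upstream start of Scn2a1 had 4, 16 and 18 fragments (0.364, 0.696 and 1.20 times) and its downstream start 13, 11 and 13. The median over 32851 starts was 10, 22 and 15 fragments. The start of Scn1a and the upstream start of Scn8a were above it in the 3 libraries, the downstream start of Scn8a was above, at and below it, and at these depths a difference of a few fragments lies within counting error.

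**Figure D5:**
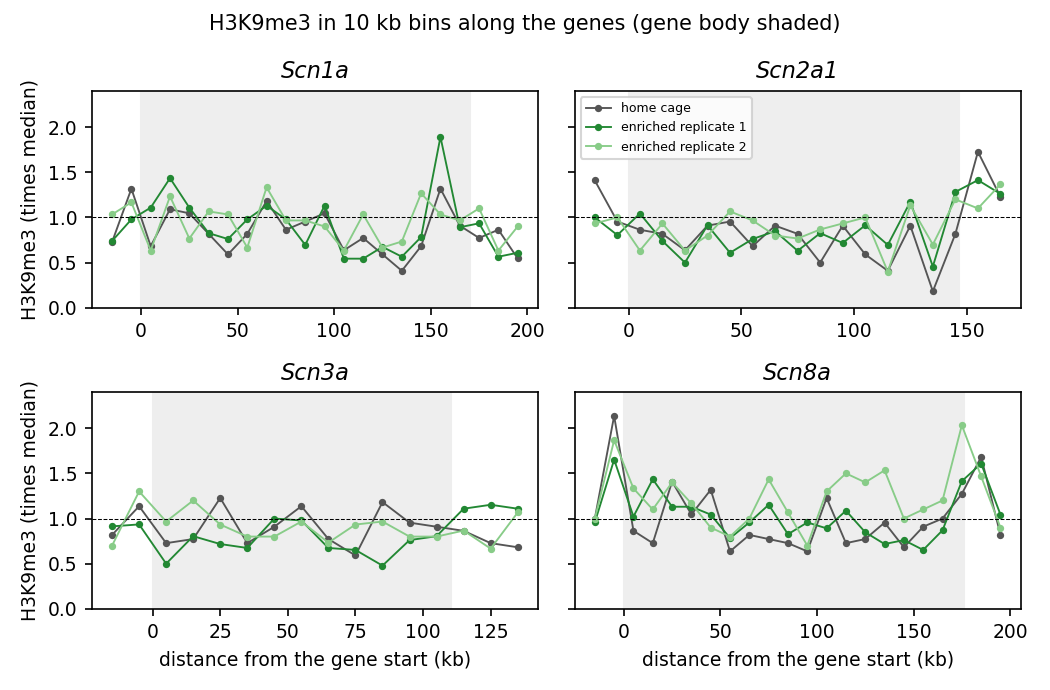
H3K9me3 in bins of 10 kb along the 4 genes, as multiples of the library median, against the distance from the start of the gene in kb; lines are the 3 libraries and the gene body is shaded. Most bins inside the genes lie near or under the dashed line at 1, except in Scn8a in enriched replicate 2, where most lie above it. The bin before the start of Scn8a stands at 2.14, 1.65 and 1.87.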

How the data were processed

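Members and gene lists were chosen with earlier results of these data known. The RNA files hold, per the file headers, counts of inclusion and skipping reads of splicing events, which are raw whole numbers, beside the authors' p-values and FDRs. The ChIP files hold the authors' coverage, a signal in whole multiples of 1 step per library (tolerance 0.01). The submitters' processing notes name CASAVA 1.7, BWA 0.7.12, MACS2, TopHat2 and mm10 without roles. The counter of events is not given in the sources used here.

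Events were joined across replicates by type and coordinates (starts counted from 1), and coordinates occurring more than once in a table were dropped, leaving 11814. edgeR 4.0.16 (R 4.3.3) fitted splicing by quasi-likelihood, with terms for library, form and form in KCl, where each form averaged at least 1 read (10088 events). Levels summed both forms and were scaled by TMM, with the same minimum. Shares are of reads, not transcripts, because effective lengths are unknown. From the coverage steps, fragments of 285, 207 and 238 bases (home cage, enriched replicates 1 and 2) were rebuilt, kept at most 2 to a start, and assigned by midpoint to RefSeq genes of GRCm38.p6. Genes averaging 20 fragments or more entered limma 3.58.1 with voom weights, after scaling on the median ratio of 10 kb windows in the lower 75% of signal. DESeq2 1.42.0, limma, other filters and scalings, a replicate block and left-out libraries served as alternatives. Benjamini-Hochberg adjustment covered each whole table. The text names every member, every exon pair, member events averaging 10 reads, those in 1 table, the 3 partner genes of smallest p in each list and the 3 genes most like each member. Fits were tested on simulated data, and intervals cover counting error only, since reads are not independent molecules.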

Additional observations from a re-analysis of the deposited data

How the results depend on the processing

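No sodium channel event was called for splicing under any alternative run, while over all events edgeR with the replicate number as a block called 167 and DESeq2 12, against 0. Leaving out 1 library gave a count of 0 in each case, and log2 odds ratios from -0.0017 to 1.37 for the Scn2a1 pair, from -1.61 to 0.31 for the Scn8a pair and from -4.64 to -0.43 for the Scn1a exon. With the replicate block edgeR called 3 of the 4 genes by level (Scn1a, Scn2a1 and Scn8a) and 5 of the 8 event levels, among 1269 genes and 1359 events in all. The labels do not say what a replicate number shares; deviations of same-numbered libraries correlated at 0.62. DESeq2 called 1 member gene among 71 genes, and 101 events, and gave no adjusted p for member events in splicing or level. Leaving out 1 library gave 0 to 2 member genes and 0 to 4 member events, both highest without KCl replicate 2, where 299 genes and 434 events were called in all; without control replicate 2 it was 20 and 80, without KCl replicate 1 it was 3 genes and 0 events, and without control replicate 1 it was 0 genes and 3 events, 1 of them the Scn1a exon. The cause was not tested. The level of the 68-base Scn8a exon changed sign with limma (0.038) and over the left-out libraries (-0.47 to 0.65). All other member levels stayed negative under each alternative of filter, tool, block, size factor and left-out library. Set against neuron markers, Scn3a was 0.99 and Scn8a 0.52, both of the opposite sign. The median over all events of Scn8a was -0.83. H3K9me3 ratios kept their direction in each alternative, and no member was called. In KCl replicate 1 the exon pairs had 9 to 11 reads, which limits what exon use can show there.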
